A study of Mus musculus with 4 samples.

Results

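The subject is a tiled stretch of distal mouse chromosome 12, from 103729334 to 106155381 in build mm6 (2.43 Mb). It comprised every probe that the array files assign to that stretch, 26404 of 388160 tiling probes (6.80%). The rule uses position alone and no measured value, although the stretch was picked with earlier results of these data known. The array itself was designed for places that an earlier genome-wide 4C screen of pooled samples, ES cells and embryoid bodies among them, had favoured. All groups therefore carry the same selected tiling.

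Circular chromosome conformation capture (4C) crosslinks chromatin, digests and religates it, and amplifies the fragments that were ligated to 1 chosen fragment, the bait. In these experiments it was the H19 ICR of distal chromosome 7. There CTCF binds the unmethylated maternal copy, and this imprinting control region lets H19 be expressed from the maternal and Igf2 from the paternal chromosome. In 4C, signal on chromosome 12 is read as contact between chromosomes. Distal mouse chromosome 12 is known for the imprinted Dlk1-Dio3 domain, but whether the tiled stretch holds it was not determined, because an annotation of build mm6 was not used here. Loci are named by position, and no gene is assigned to them.

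The 2 cell states were R1, a mouse embryonic stem (ES) cell line, and embryoid bodies (EB), the clumps in which such cells differentiate when grown in suspension, taken at 12 days. Each state was measured on 2 arrays, and each replicate was a pool of 3 independent samples. No marker of either state was measured, so that the state rests on the labels alone. On every array the 4C product was labelled with Cy5, and genomic DNA of the same state, digested with MboI, with Cy3, with no dye swap, so that any preference of the dyes is shared by all arrays. Values below are the Cy5 intensity of single 50-base probes on the log2 scale, minus the median over all tiling probes of the same array. A value of 0 is thus the level of a typical probe, and a probe was called positive at 1 log2 unit, 2-fold over that median. Per the file headers, both replicate 1 arrays share a date and a software version and both replicate 2 arrays share another, so that each date holds 1 ES and 1 EB array. Within-date differences are given as replicate 1 and replicate 2.

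Tiling was dense within the stretch: 90.6% of neighbouring probes started 52 bp apart, while 881 gaps exceeded 300 bp and the largest was 24477 bp. The median raw intensity of all tiling probes was 969 and 1521 on the ES arrays, against 543 and 1638 for EB, so that EB replicate 1 was the dimmest. Random control probes lay close to the same level, with medians of -0.0098, -0.039, -0.024 and -0.028 log2 units on ES replicates 1 and 2 and EB replicates 1 and 2. The highest value that the scanner can record lay 6.08, 5.43, 6.92 and 5.32 log2 units over the median on these arrays, and signal above it cannot be seen.

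Most of the chromosome 12 stretch stayed below the 2-fold level in both states. Of its 26404 probes, 25477 (96.5%) were positive on no array. The positive share was 0.920% and 1.70% on the ES arrays, against 0.420% and 2.05% on the EB arrays. Among random controls it was 0.503%, 0.335%, 0.084% and 1.01%, and among the probes of the 21 other large tiled regions outside chromosome 7 it was 0.834%, 1.14%, 0.471% and 1.38%. The share was higher on the replicate 2 array than on the replicate 1 array within each state, and the ES and EB values overlapped.

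The mean signal over the stretch did not separate the states. It was 0.040 and 0.098 log2 units for ES, against 0.025 and 0.103 for EB. EB minus ES was -0.0053, with -0.015 for replicate 1 and 0.0046 for replicate 2 (exact permutation test, two-sided, p = 1.0; the smallest p that 2 arrays against 2 allow is 0.33). The difference turned to 0.0023 for the median over the stretch, a setting added after the data were seen, and to 0.062 for the ratio of 4C to input.

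Runs of adjacent positive probes that both arrays of a state shared were found at 2 short loci, both positive in ES cells and below the 2-fold level on average in embryoid bodies. A run was defined as 3 or more positive neighbours, none over 300 bp from the next, and a site as such a run in which every probe was positive on 2 or more arrays. By this rule the stretch held 3 sites with 20 probes (0.0757% of its probes), and both ES arrays but neither EB array had runs there. Because the sites were chosen by their signal, their values are a description and were not tested as sites. Sites 1 and 2 lie next to each other and are described as the first locus, and site 3 is the second.

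The first locus ran from 103989051 to 103990059, 260 kb into the stretch (10.7% of its length). It spanned 1009 bp and 16 tiled probes, of which 15 were positive on both ES arrays. Its site 1, 8 probes starting at 103989051, had a mean signal of 2.73 and 4.48 log2 units on ES replicates 1 and 2, against -0.023 and 0.11 on EB replicates 1 and 2. Site 2, 7 probes starting at 103989670, had 2.26, 3.98, 0.0099 and 0.12 on the same arrays. At both sites the EB arrays were at the level of a typical probe, both ES arrays were far above them, and ES replicate 2 was the higher of the pair. EB minus ES was -3.56 at site 1 (-2.75 for replicate 1 and -4.37 for replicate 2) and -3.06 at site 2 (-2.25 and -3.87). With EB set at the 2-fold level, the mean of the 2 ES arrays was 6.08-fold higher at site 1 and 4.35-fold higher at site 2. ES replicate 1 lay below that mean at both sites.

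The ES replicates also differed in how far the first locus reached. On ES replicate 2 it was a single run of 17 probes from 103988999 to 103990010. ES replicate 1 had it in 2 runs of 8 and 7 probes, because the probe at 103989618 between them and the probe at 103988999 before them were not positive there. The probe at 103989618 had 0.57 and 3.89 log2 units for ES, against 0.24 and 0.0013 for EB. The probe at 103988999 had 0.68 and 4.29 for ES, against -0.30 and -0.32 for EB. Both were thus strongly positive on 1 ES array and below the 2-fold level on the other. To the right the next tiled probe was 554 bp away, at 103990564, and had 0.26 and 0.11 in ES, so that the right edge of the signal falls in an untiled gap. On ES replicate 2 the left edge falls in an untiled gap too. The tiled probe before 103988999 lay at -765 bp from the start of the locus and had 0.12 on that array.

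The array holds 12 further probes inside the stretch that have no region label and are not counted among its 26404 probes. Of these, 7 lie at the first locus, between 103988999 and 103989966, as separate spots that overlap the tiled probes. Their means were 2.05 and 4.65 log2 units for ES, against -0.015 and -0.135 for EB. As at sites 1 and 2, both ES means were above both EB means and ES replicate 2 was the highest. Single-probe limma called 4 of these 7 higher in ES (adjusted p from 0.0052 to 1.0 over the 7), against 0.517% of all tiling probes. The other 5 unlabelled probes, elsewhere in the stretch, had values from -0.471 to 0.317 on all arrays, and limma called 0 of them. The 7 probes share sequence with the site probes and the same hybridised DNA, and are not independent samples of the locus. Since the locus was chosen by its signal on these same arrays, their calls repeat that choice and add no separate test.

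The second locus, site 3, lay 194 kb further on, from 104184532 to 104184789, and was the shorter and brighter one. Its 5 probes over 258 bp had means of 5.30 and 4.84 log2 units for ES, against 0.56 and 0.38 for EB. Unlike the first locus it was not higher on ES replicate 2, and 1 of its 5 probes just reached the 2-fold level on EB replicate 1, at 1.01. EB minus ES was -4.60, with -4.74 for replicate 1 and -4.46 for replicate 2. With EB set at the 2-fold level, the mean of the 2 ES arrays was 16.8-fold higher at site 3. On each ES array 80.0% of its probes came within 2-fold of the highest recordable value. Its highest single values, 5.88 and 5.39 on ES replicates 1 and 2, stayed below the limits of 6.08 and 5.43. Whether nearness to the limit lowered the ES level was not tested. At site 1 the share of probes within 2-fold of the limit was 0% on ES replicate 1 and 75.0% on ES replicate 2. At site 2 it was 0% and 28.6%.

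The edges of the second locus were unlike each other. The tiled probe 52 bp to the left, at 104184480, had -0.064 and 0.00043 log2 units in ES cells, the level of a typical probe. On the right, the 5 probes from 104184792 to 104185000 had means of 0.47 and 0.59 for ES, against 0.17 and 0.038 for EB. Signal thus fell from near the upper limit to background within 1 probe step on the left. On the right it fell under the 2-fold level, to uneven values. Over the 5 probes these ranged from 0.073 to 0.62 on ES replicate 1 and from -0.167 to 0.84 on ES replicate 2.

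**Figure D1:**
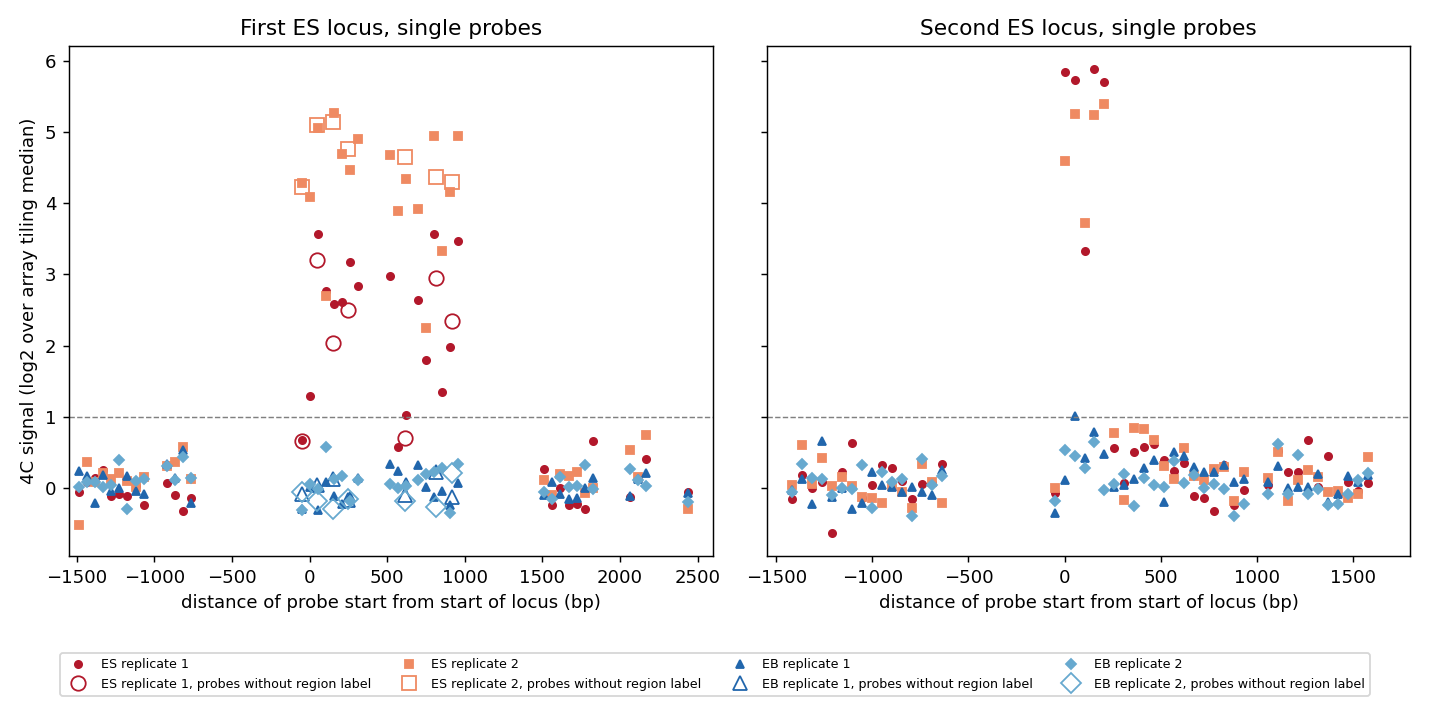
4C signal of single probes (log2 over the array's tiling median) against the distance of the probe start from the start of the locus in bp, for the 2 ES arrays (circles and squares) and 2 EB arrays (triangles and diamonds); open symbols are probes without a region label and the dashed line is the 2-fold level. At the first locus (left) the ES arrays reach means of 2.73 and 4.48 at site 1, at the second (right) means of 5.30 and 4.84, while the EB arrays stay near 0 at the first and reach means of 0.56 and 0.38 at the second.

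Single probes of the 3 sites ranged from 1.02 to 5.88 log2 units in ES and from -0.357 to 1.01 on the EB arrays. At each of the 20 probes the lower ES value exceeded the higher EB value. At 19 of them, positive on both ES arrays alone, this order follows from the signal by which they were chosen. The input channel was above its own tiling median at the sites in both states. The mean input signal was 1.99 and 1.31 log2 units for ES, against 1.39 and 0.91 for EB, at site 1, and 1.46, 0.61, 0.74 and 0.25 at site 2. At sites 1 and 2 the input was higher in ES on both dates, as was the 4C channel. At site 3 the input was 3.26 and 1.22 for ES, against 3.63 and 2.08 for EB. There it was higher in EB on both dates, while the 4C channel was higher in ES. The part of probe brightness in the height of these sites was not tested.

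Runs outside the 3 sites were few and were not shared between arrays. ES replicate 1 had 20 probes in runs (0.0757%), ES replicate 2 had 25 (0.0947%), EB replicate 1 had 0 and EB replicate 2 had 3 (0.0114%). The 20 probes of ES replicate 1 were all among the 25 of ES replicate 2, and the EB arrays shared 0. The extra ES replicate 2 run, 3 probes from 104931973, had a mean of 1.55 on that array and 1.05 on EB replicate 2, against 0.25 and 0.38 on the replicate 1 arrays. The EB replicate 2 run, 3 probes from 106143234, had 1.14 on that array and 0.92, 0.69 and 0.82 on ES replicates 1 and 2 and EB replicate 1. Neither of these runs separated the states.

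The share of probes in runs was 0.0852% ± 0.0134 in ES and 0.00568% ± 0.0080 in EB (SD, n = 2). EB minus ES was -0.0757 percentage points for replicate 1 and -0.0833 for replicate 2, and the states did not overlap (exact permutation test, two-sided, p = 0.33, the smallest that this design allows). At a 1.5-fold level the share was 0.172% in ES and 0.138% in EB. With runs of 2 or more probes it was 0.138% and 0.0587% (exact permutation test, two-sided, p = 0.67). Under both rules the states no longer stood apart. After a normexp background correction the order of the state means turned, with 1.35% in ES and 2.16% in EB, but the states overlapped. The number of sites then rose from 3 to 121, of which 72 were positive on the replicate 2 arrays alone.

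Outside the sites, probes positive on 2 arrays were mostly shared by the replicate 2 arrays, not by arrays of one state. The stretch had 207 probes positive on both replicate 2 arrays and no other array, of which 0 were in sites, and 1 positive on both replicate 1 arrays alone. By contrast 23 were positive on both ES arrays alone, 19 of them in sites, and 6 on both EB arrays alone. A single array accounted for 175 (ES replicate 1), 145 (ES replicate 2), 32 (EB replicate 1) and 261 (EB replicate 2). As shares of all probes, the pattern of both ES arrays alone took 0.0871% of the stretch and 0.0186% of the other large regions outside chromosome 7, and that of both replicate 2 arrays alone 0.784% and 0.429%. These differences between regions were not tested.

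**Figure D2:**
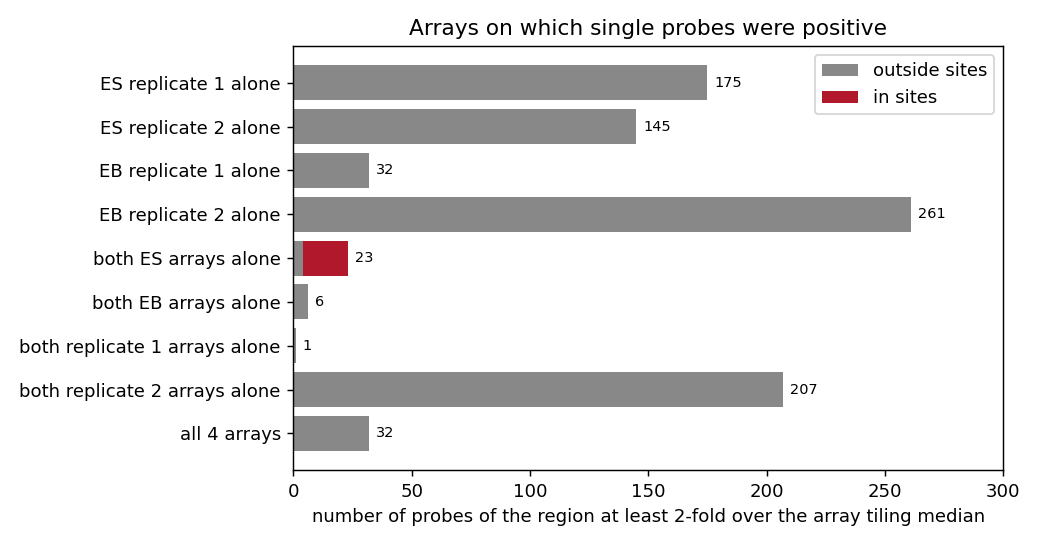
Number of probes of the chromosome 12 stretch that were at least 2-fold over the array's tiling median, by the arrays on which they were positive, with probes in the 3 sites in red and others in grey. Both replicate 2 arrays alone share 207 probes, none in a site, whereas 19 of the 23 probes positive on both ES arrays alone lie in sites.

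At the scale of 50 kb, the replicate 2 arrays lay above the replicate 1 arrays of the same state along nearly the whole stretch. The 49 bins held 28 to 854 probes (median 589), and their means lay between -0.030 and 0.223 log2 units. ES replicate 2 was above ES replicate 1 in 47 of 49 bins, and EB replicate 2 above EB replicate 1 in 48. The difference between the replicates of one state correlated with that of the other at Pearson's r = 0.807 over the 49 bins. Over all 847 bins of the array that r was 0.240. Both are descriptions across bins of the same 4 arrays.

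Limma called 0 of the 49 bins between the states (Benjamini-Hochberg adjusted over all 847 bins of the array; smallest adjusted p 0.258). On the whole array it called 2.36% of bins, all of them higher in ES. At an unadjusted p under 0.05 the stretch had 0 bins higher in ES (whole array 3.9%) and 1 higher in EB (whole array 0.472%). The lower ES value exceeded the higher EB value in 3 bins (6.12%, against 12.4% on the whole array), and the reverse held in 1 bin (2.04%, against 3.42%). With the replicate number as a block, limma called 3 of the 49 bins, 2 higher in ES (whole array 4.37%) and 1 higher in EB (whole array 0.354%).

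The bin from 103950001 to 104000000 held the first locus. Its mean over 583 probes was 0.092 and 0.197 log2 units for ES, against 0.011 and 0.071 for EB. EB minus ES was -0.104 (SE 0.042, limma adjusted p = 0.999; with the replicate block, adjusted p = 0.016). The ES arrays were the higher on both dates, by 0.0813 and 0.126, yet EB replicate 2 came close to ES replicate 1. The bin with the second locus was not among those whose ES and EB arrays stood apart.

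The other 3 bins with no overlap between the states held no site. The last bin of the stretch, from 106150001, rests on 28 probes and had 0.066 and 0.146 for ES, against -0.030 and 0.059 for EB (difference -0.091, limma adjusted p = 0.999; with the replicate block, adjusted p = 0.016). The bin from 104700001, on 29 probes beside untiled gaps, was the one higher in EB, with -0.026 and 0.0072 for ES, against 0.079 and 0.119 for EB. Its difference was 0.108 (SE 0.026, limma adjusted p = 0.258; with the replicate block, adjusted p = 0.0064). On the ratio of 4C to input the difference was 0.0057 (limma adjusted p = 0.997). The bin from 105150001, on 823 probes, differed by -0.025 (limma adjusted p = 0.999). The bins at 104700001 and 106150001 are the thinnest of the stretch, and their differences of about 0.1 log2 units are far below the 2-fold level of a positive probe.

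**Figure D3:**
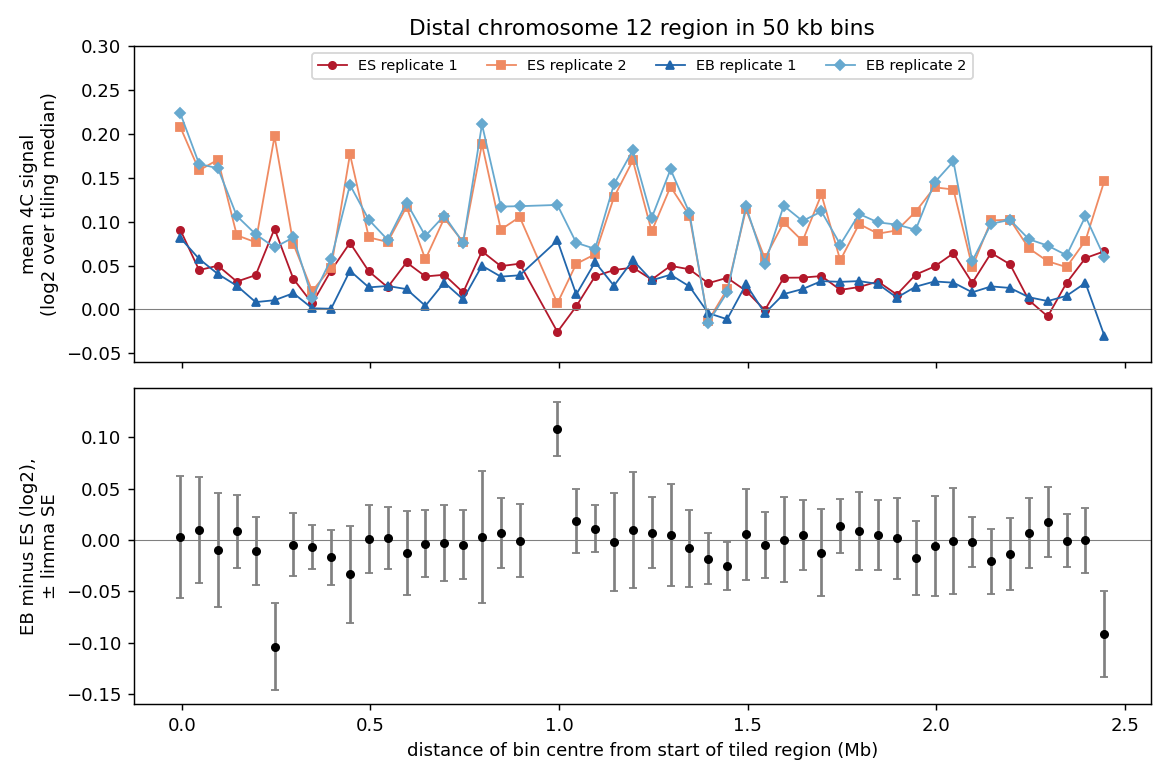
Upper panel, mean 4C signal (log2 over the array's tiling median) of the 49 bins of 50 kb on each array, and lower panel, EB minus ES with the limma standard error, both against distance from the start of the tiled stretch in Mb. The 2 replicate 2 arrays run above the replicate 1 arrays along most of the stretch, and the differences lie between -0.104 at the bin of the first locus and 0.108.

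Windows of 10 kb gave the same picture at finer scale. Limma called 0 of 238 windows (1.23% on the whole array; smallest adjusted p in the stretch 0.115), and 0 with the replicate block (whole array 0.861% higher in ES and 0.131% higher in EB). At an unadjusted p under 0.05, 2 were higher in ES (whole array 3.76%) and 2 higher in EB (whole array 0.887%). Non-overlapping arrays were found in 18 windows higher in ES (7.56%, against 15.3% on the whole array) and 15 higher in EB (6.30%, against 7.96%). The window from 103980001, with most of the first locus, had 0.229 and 0.512 log2 units for ES, against 0.027 and 0.084 for EB (difference -0.32, limma adjusted p = 0.79). The window from 104180001, with the second locus, had 0.299 and 0.381 for ES, against 0.106 and 0.093 for EB (difference -0.24, limma adjusted p = 0.115). Without ES replicate 1 limma called both (adjusted p = 0.00033 and 0.0062), but in that fit the lone ES array is assumed to vary like the EB pair. Neither was called without ES replicate 2 (adjusted p = 0.156 and 0.059) or without either EB array (adjusted p from 0.721 to 0.998). A locus of 5 or 15 positive probes thus moved the mean of its window by a fraction of a log2 unit.

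The window from 104730001 had the largest difference towards EB of the 238 windows. Its 8 probes had 0.0033 and -0.068 log2 units for ES, against 0.202 and 0.135 for EB (difference 0.201, limma adjusted p = 0.253). It lies in the bin from 104700001. Limma called it without ES replicate 1, with the spread taken from the EB pair alone (adjusted p = 0.031), and did not without any other single array (adjusted p 0.227 to 0.997).

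Across the 238 windows, Pearson's r was 0.323 for the ES pair and 0.421 for the EB pair. It was 0.176 between the replicate 1 arrays and 0.664 between the replicate 2 arrays. Without the 3 windows that hold sites, r was 0.164 for the ES pair, 0.425 for the EB pair and 0.764 between the replicate 2 arrays. These are descriptions over windows that share probe composition and array, and the part of the date in the contour of the stretch was not tested apart from the replicate block.

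Among single probes, limma called 21 of 26404 between the states (0.0795%, against 0.586% of all tiling probes, adjusted over all 388160). Of these, 20 were higher in ES (0.0757%, against 0.517%) and 1 was higher in EB (0.0038%, against 0.069%). At an unadjusted p under 0.05, limma had 360 higher in ES and 234 higher in EB (whole array 2.13% and 1.12%). The called share was therefore below that of the whole array, which includes the bait chromosome. Of the 21, 15 belonged to the 3 sites, among them all 5 probes of site 3, and were selected by the same signal. The probe at 104184740 had 5.70 and 5.39 log2 units for ES, against 0.47 and -0.027 for EB (difference -5.32, limma adjusted p = 1.1e-05). The site probes not called were at the first locus, where the ES replicates differed, as at 103989670 with 1.02 and 4.34 for ES, against 0.082 and 0.022 for EB (limma adjusted p = 1.0).

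These calls depended on the values and the fit that were used. Of the 15 site probes, limma called 4 on the ratio of 4C to input, 6 with robust eBayes and 11 when either EB array was left out. With the replicate block it called 35 probes, 32 higher in ES and 3 higher in EB (whole array 0.767% and 0.0994%), and all of the 21 were among them.

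The other 6 called probes stood alone and were named after their values were seen. Of these, 5 were positive on all 4 arrays and brighter in ES. The probe at 104525621 had 5.98 and 5.20 log2 units for ES, against 3.07 and 3.51 for EB (limma adjusted p = 0.0085). The probe at 106119925 had 5.95 and 5.43 for ES, against 4.06 and 3.88 for EB (limma adjusted p = 0.011). The probe at 105501464 had 3.67 and 3.15 for ES, against 1.23 and 1.02 for EB (limma adjusted p = 0.0018). The probes adjoining each of these 3 were at background, with state means from -0.179 to 0.219, so that no run was formed. These 3 calls were lost with normexp (adjusted p = 0.36 at 104525621, 0.99996 at 106119925 and 0.083 at 105501464) and on the ratio of 4C to input. Quantile normalization ended the calls at 104525621 and 105501464, whose differences shrank to -0.34 and -0.57. Scaling to equal spread ended the call at 106119925, as did leaving out either EB array, and leaving out EB replicate 1 ended that at 104525621. At 106119925 ES replicate 2 was at the highest value recorded, so that 5.43 is a lower bound. The calls at 105559758 (limma adjusted p = 0.040) and 105674145 (limma adjusted p = 0.022) turned to EB above ES under quantile normalization, with differences of 1.05 and 0.71.

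The 1 probe called higher in EB was at 103880809, to the left of the first locus. It had -0.053 and 1.53 log2 units for ES, against 3.63 and 4.82 for EB (difference 3.49, limma adjusted p = 0.031). It was positive on ES replicate 2 as well, and its neighbours had EB means of 0.11 and -0.14. The call was lost without EB replicate 2, on the ratio of 4C to input and with robust eBayes.

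In all, 32 probes of the stretch were positive on all 4 arrays, and 0 of them were in sites. Their medians were 1.86 and 2.88 log2 units for ES, against 1.81 and 2.18 for EB. The states were apart with ES above EB at 12 of the 32, and the reverse held at 0. Of the 778 such probes on the whole array, 26.9% had ES above EB and 9.25% EB above ES, and of the 403 in the other large regions outside chromosome 7 34.5% and 6.7%. The mean of the tiled neighbours on either side had medians from 0.052 to 0.083 on the 4 arrays. Of the 32, 27 had no positive neighbour on any array, and 5 had one on at least 1 array, among them the probe at 106143407, which ends the EB replicate 2 run. The median input signal of the 32 probes was 5.29 log2 units over the input's tiling median, against 0.252 for the stretch. Most of them thus stood alone and were bright in both channels. The site probes were bright in runs and, in the 4C channel, on the ES arrays. Their input was above its tiling median as well, with site means from 0.25 to 3.63 on the 4 arrays.

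**Figure D4:**
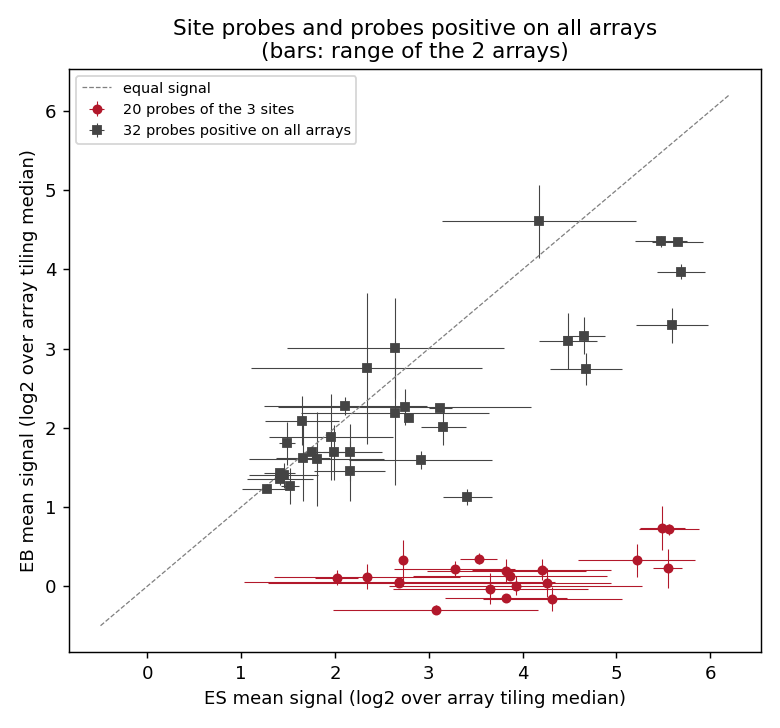
Mean ES signal against mean EB signal (log2 over the array's tiling median) of the 20 probes of the 3 sites (red) and the 32 probes positive on all arrays (grey), with bars for the range of the 2 arrays and a dashed line of equal signal. The site probes lie between -0.357 and 1.01 on the EB arrays, whereas the probes positive on all arrays lie above 1 in both states.

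Compared with the 21 other large tiled regions outside chromosome 7, the chromosome 12 stretch ranked 2 of 22 by its share of probes in runs on each ES array. The region above it, on chromosome 15 from 72432602, had 0.114% in runs on both ES arrays, but 0.114% and 0.103% on the EB arrays as well. The region ranked next, on chromosome 14 from 68586580, had nearly the pattern of the chromosome 12 stretch, with 0.0741% in runs on both ES arrays, 0 on both EB arrays and 1 site of 7 probes positive on the ES arrays alone. Of the 21 others, 16 had 0 probes in runs on both ES arrays. The others held 5 sites in all, 1 in each of 5 regions, of which 2 were positive on both ES arrays alone and 0 on both EB arrays alone. Pooled over these regions, the share in runs was 0.0075% and 0.0132% for ES, against 0.0075% and 0.0195% for EB. The most distal tiled region of chromosome 7, the bait's chromosome, had 7.20% and 9.66% for ES, against 0.856% and 0.905% for EB, far above the chromosome 12 stretch in both states. These regions were compared without a test, since the shares rest on a few runs each and on the same 4 arrays.

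**Figure D5:**
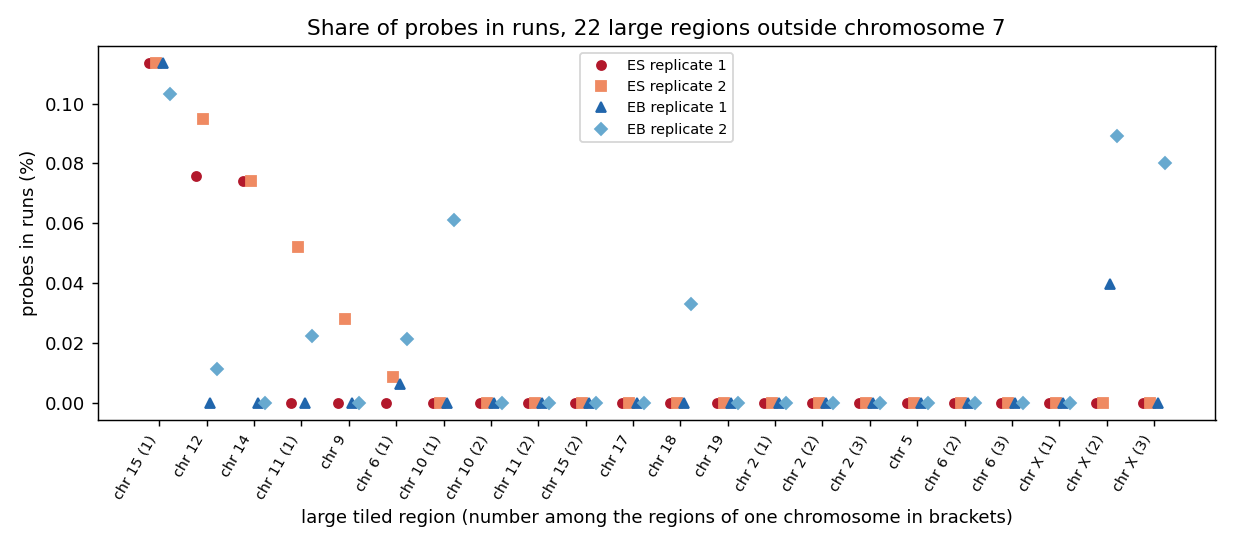
Share of probes in runs (percent) on each array in the 22 large tiled regions outside chromosome 7, ordered by the ES mean, with ES arrays as circles and squares and EB arrays as triangles and diamonds. The chromosome 12 stretch has 0.0757% and 0.0947% for ES, against 0 and 0.0114% for EB, and the first chromosome 15 region has about 0.11% on all arrays.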

How the data were processed

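The data were 4 NimbleGen tiling arrays, 2 of ES cells and 2 of embryoid bodies. The deposited files give the intensity of each probe in each channel, as read by NimbleScan (2.3.78 for replicate 1 and 2.3.18 for replicate 2, per the file headers). Whether the background had been corrected is not stated there. Log2 of the Cy5 intensity was centred on each array's tiling median, with no loess or quantile step. Of 389359 spots, 1193 random controls were left out of the tests and 6 repeated spots averaged. Bins of 50 kb with at least 20 probes, windows of 10 kb with at least 5 and single probes were averaged and tested with limma 3.58.1 (lmFit, eBayes, R 4.3.3; EB minus ES, two-sided, Benjamini-Hochberg over the whole array, threshold 0.05). Neighbouring probes are not independent. Single values per array had an exact permutation test. Other steps used Python 3.11.15, pandas 2.3.3, numpy 2.4.6, version 1.17.8 of data.table and matplotlib 3.10.9. The precision is limited by the number of arrays.

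The members, sites and rules were chosen with earlier results of these data known. Named bins were those called, at most 10 per direction, or up to 5 per direction with the largest differences and non-overlapping states; named windows followed the calls, beside those with sites, and single probes served as examples of sites. The fold given for a site compares the mean of the 2 ES arrays with the 2-fold level, at which the EB arrays were set. Alternatives were normexp (offset 50), quantile normalization, scaling, the ratio of 4C to input, other run rules, robust eBayes, leaving out each array, and the replicate block.

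The replicate number equals the date in the file headers, which pairs 1 ES with 1 EB array: the difference between replicates correlated across states at r = 0.240 over 847 bins, 0.0785 over 3831 windows, and 0.807 over the 49 bins of the stretch. Limma and the run finder were run on simulated data with planted changes and runs. The noise there was independent for each feature, without the deviation that arrays of the same date share. The simulation therefore cannot tell how the fit handles that deviation. Sequences are not printed, because a genome of build mm6 was not used here.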

Additional observations from a re-analysis of the deposited data

How the results depend on the processing

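The 3 sites were higher in ES under every alternative computed for them (EB minus ES -2.46 to -5.31 at site 1, -2.08 to -4.68 at site 2 and -3.44 to -5.69 at site 3). The sites were chosen by signal on these same arrays and were positive on both ES arrays, so that this direction is a description and not a test. Counts of calls moved. For 50 kb bins, limma called 0, against 1 with quantile normalization and 3 with the replicate block, which pairs the arrays by date. For windows, leaving out 1 array gave 0 to 3 calls; without ES replicate 1 there were 3, without ES replicate 2 there was 1. For single probes, limma called 21, against 42 with normexp (37 higher in ES, 5 in EB), 48 with quantile normalization (16 and 32), 4 on the ratio of 4C to input, 12 with robust eBayes and 35 with the replicate block, and 21 to 204 when 1 array was left out (91 without ES replicate 1, 204 without ES replicate 2). Apart from the replicate block, these alternative counts have no whole-array share beside them. They show how calls moved and not how the stretch compares with the array. The share of probes in runs (ES minus EB 0.0795 points) reversed to -0.810 with normexp, where the states overlapped. The difference was 0.0341 at a 1.5-fold level and 0.0795 with runs of 2 or more probes, where the states did not stand apart either. It lay between 0.0701 and 0.0890 without 1 array. The difference in mean signal (-0.0053) reversed to 0.0621 on the ratio and 0.0023 for the median, and ranged from -0.0444 to 0.0339 without 1 array. The number of sites was 121 with normexp and 6 at a 1.5-fold level, and 0 to 3 without 1 array. It was 0 without ES replicate 1 or 2. For sites positive in ES alone, the rule of 2 positive arrays nearly fixes that count. On the ratio, the bins from 106150001 and 105150001 reversed to 0.0435 and 0.0011 and that from 104700001 fell from 0.108 to 0.0057, and under quantile normalization the probes 105559758 and 105674145 reversed to 1.05 and 0.707. Unless stated, the cause was not tested. With 2 arrays per state, no exact test can go below 0.33, and signal is limited above by the scanner and below by probes at the level of random controls.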
